A study of Mus musculus with 6 samples.

Results

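Knockout and wild-type macrophages were compared under lipopolysaccharide (LPS), on the 4 arrays of 1 h and 5 h among the 6 arrays of the series. Each knockout array was set against the wild-type array of the same time, across the 5678 of 12394 named genes that lie on an autosome and reached a signal of 200 on at least 1 of these 4 arrays. The macrophages were grown from bone marrow of wild-type mice or of mice without IκBβ, both labelled C57BL/6J, over 7 days in medium conditioned by L929 cells, which supplies macrophage growth factor. They received 1 µg/ml LPS for 1 h or 5 h, and untreated cells of each genotype gave the arrays of 0 h. Total RNA was hybridised to Affymetrix Mouse Genome 430A 2.0 arrays, 1 array for each genotype and time, so no group has replicates. The labels do not state how the allele was deleted, how many animals gave a culture, or if arrays of 1 genotype came from 1 animal.

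IκBβ is an inhibitor of NF-κB, the family of transcription factors that LPS activates through Toll-like receptor 4. It holds dimers that contain RelA or c-Rel outside the nucleus, is degraded when the IKK kinase is active, and can return in a form that binds NF-κB on DNA without removing it. Among the best-known NF-κB targets of macrophages are the cytokine genes Tnf, Il1b, Il6 and Il12b, and Nfkbia, which encodes the inhibitor IκBα.

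The microarray signals are MAS5 intensities, and differences are given as knockout minus wild type on the log2 scale after raising signals under 18.2 to that floor. Nfkbib, the gene of IκBβ (chr7:28758251-28766644, GRCm38.p6), read 3330 and 5007 in wild type against 136 and 56.1 in knockout at 1 h and then 5 h, and −3.97, −4.62 and −6.48 stood between the genotypes at 0 h, 1 h and 5 h. It was left out of every count that follows, and the labels do not state where its probes lie against the deleted sequence. Xist read 52.1 to 80.4 on the wild-type arrays and 2149 to 5634 on the knockout arrays, whereas the Y-linked Eif2s3y read 570 to 860 and 0.896 to 10.7. Wild-type arrays thus carried male RNA and knockout arrays female RNA, and genotype and sex cannot be told apart in any difference given here. The macrophage genes Csf1r (12870 to 15489), Adgre1 (14819 to 15465) and Cd68 (9675 to 12310) were bright on all 4 LPS arrays. Of markers of other cells on the array, 0 of 14 T and NK cell genes, 1 of 10 B cell genes (Ighm), 2 of 16 fibroblast genes and 4 of 13 neutrophil genes reached 200. The summed neutrophil markers read 4364 in wild type against 4974 in knockout at 1 h, and 5191 and 6477 at 5 h, with Cxcr2, Elane and Ltf under the floor on all 4 arrays. The summed T and NK cell markers read 276 and 268 at 1 h, and 310 and 334 at 5 h. The part of these markers in the results was not tested, and in bulk RNA fewer cells of a type and less RNA per cell cannot be told apart.

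Among 5677 genes, a limma fit of 1 genotype difference for both LPS times, with time as a block, called 3 genes lower in knockout (0.0528% of the genes tested) and 0 higher (0%) at an adjusted p (Benjamini-Hochberg) under 0.05. The 3 genes were Il12b, Apoc2 and Apoe. An unadjusted p under 0.05 was reached by 526 genes, 301 lower and 225 higher. The test has 1 residual degree of freedom, and its p-values measure the spread between the 2 LPS times, not between animals. With a prior variance that follows the signal, the same test called 40 genes higher and 41 lower.

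Counted by size, 11 genes were at least 2-fold lower in knockout at both LPS times (0.194% of genes) and 5 were at least 2-fold higher (0.0881%). The 11 were Il12b, Apoc2, Apoe, Gtpbp6, Cst7, Gfi1, Mki67, Adm, Mad2l1, Ccl24 and Adat2, and the 5 were Gdf3, Cry2, Gbp8, Plagl1 and F5. At 1.5-fold the counts were 34 lower (0.599%) and 32 higher (0.564%), and 13 genes stood 1.5-fold apart in opposite directions at the LPS times. Single times gave longer lists, with 40 genes 2-fold lower (0.705%) and 29 higher (0.511%) at 1 h, and 80 lower (1.41%) and 51 higher (0.898%) at 5 h. Most 2-fold differences were thus seen at 1 LPS time only, and across the 5677 genes the differences at 1 h and 5 h had a Pearson correlation of 0.22. That correlation is a description across genes of the same 4 arrays, and it was 0.29 over the 2441 genes with all 4 LPS signals at 500 or more. The spread of the differences over genes (SD) was 0.24, 0.30 and 0.37 on the log2 scale at 0 h, 1 h and 5 h.

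The balance of higher and lower genes depended on the scaling of the arrays. Median centring moved the median difference of all genes from −0.01 to 0.08 at 1 h and from −0.05 to 0.06 at 5 h, and changed the 1.5-fold counts to 57 higher and 27 lower, with 56 of the 66 genes shared. Quantile normalization gave 35 higher and 31 lower, with 53 shared. At 2-fold the counts were 7 higher and 8 lower after median centring, against 5 and 9 after quantile normalization. At 1 h alone, 44 genes were 2-fold higher and 33 lower after median centring, and at 5 h 69 and 60. Quantile normalization gave 37 and 39 at 1 h and 54 and 57 at 5 h.

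**Figure D1:**
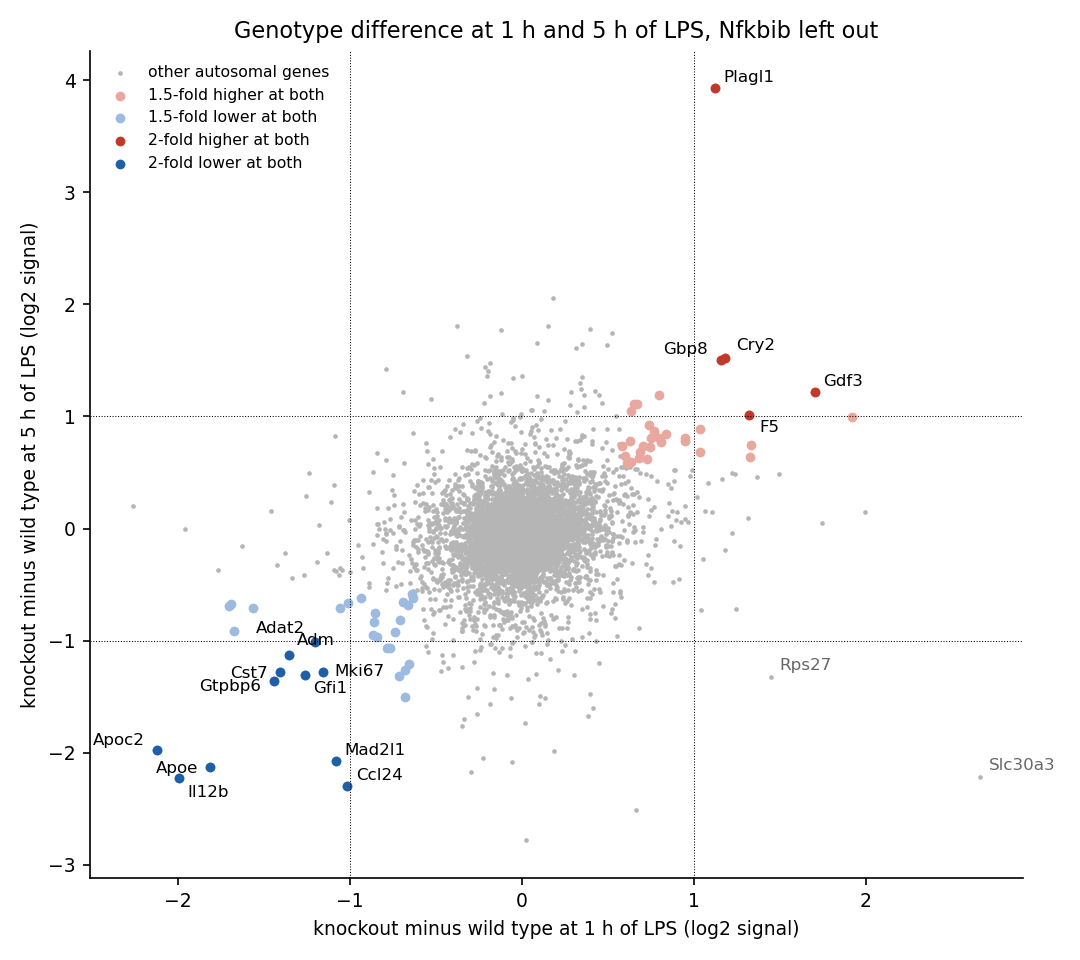
Knockout minus wild type (log2 signal) at 1 h of LPS (horizontal axis) against 5 h (vertical axis), 1 point per gene and 1 array per genotype and time, with dotted lines at 2-fold. Dark points mark the 5 genes higher and 11 lower at least 2-fold at both times, pale points the other genes past 1.5-fold at both, and Rps27 and Slc30a3 are the 2 genes that passed 2-fold in opposite directions.

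Il12b, which encodes the p40 subunit shared by interleukin 12 and interleukin 23, had the lowest p of the 5677 genes. The gene lies at chr11:44400063-44414677 (GRCm38.p6), and the 250 bases before its RefSeq start (chr11:44399813-44400062, plus strand) are shown because it is the LPS-induced gene with the largest shared difference. Capitals mark the 7 letters ATTCCCC, the reverse complement of GGGGAAT, which resembles an NF-κB half-site, at 128 to 122 bases before the start.
Il12b: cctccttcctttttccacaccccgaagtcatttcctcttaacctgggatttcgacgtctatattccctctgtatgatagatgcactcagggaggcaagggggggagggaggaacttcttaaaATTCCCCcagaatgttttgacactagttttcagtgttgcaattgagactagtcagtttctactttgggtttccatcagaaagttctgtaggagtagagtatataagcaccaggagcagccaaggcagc

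Il12b had signals of 25.1, 2715 and 3817 on the wild-type arrays of 0 h, 1 h and 5 h, and of 28.8, 681 and 816 on the knockout arrays. Both genotypes were dim without LPS and bright at 1 h. At each LPS time the knockout signal was below the wild-type one, with 1 array for each, as the choice of members requires. Il12b was 3.99-fold lower in knockout at 1 h and 4.68-fold lower at 5 h. The mean log2 difference was −2.11 (SE 0.15, limma adjusted p = 0.0138). Its second probe set read 3067 and 2771 in wild type against 899 and 828 in knockout at 1 h and then 5 h, with differences of −1.77 and −1.74. The 0 h difference was 0.20, so that LPS minus 0 h was −2.31 (limma adjusted p = 0.285). The call was lost after median centring (adjusted p = 0.051), with a minimum signal of 100 (adjusted p = 0.123), without a minimum (adjusted p = 0.583) and in a fit that adds the 0 h arrays (adjusted p = 0.492). Over all alternatives its adjusted p ran from 4.18e-08 to 0.583, with a mean difference from −2.11 to −1.93 on the LPS arrays.

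Apoe and Apoc2 lie close together on chromosome 7 (chr7:19696244-19701310 and chr7:19671579-19677941) and encode apolipoproteins: macrophages secrete apolipoprotein E, a lipid carrier, and apolipoprotein C-II activates lipoprotein lipase. Apoe read 16644, 14934 and 14416 in wild type against 4125, 4244 and 3302 in knockout (0 h, 1 h and 5 h). Apoc2 read 1766, 1541 and 839 in wild type against 369, 354 and 214 in knockout. For both genes the knockout signal was below the wild-type one at each time, with 1 array for each. The choice of members requires this at the LPS times but not at 0 h. The gap was about as wide before LPS as under it. The mean LPS difference was −1.97 for Apoe (SE 0.16, limma adjusted p = 0.0184) and −2.05 for Apoc2 (SE 0.15, limma adjusted p = 0.0138). The 0 h differences were −2.01 and −2.26, so that LPS minus 0 h was 0.04 and 0.21 (limma adjusted p = 1 for each). Both calls were lost after quantile normalization (adjusted p = 0.0617 for Apoe and 0.11 for Apoc2) and after median centring (adjusted p = 0.051 for each). With a minimum of 100 the adjusted p values were 0.137 and 0.123, and over all alternatives they ran from 2.96e-09 to 0.583 and from 4.03e-07 to 0.583.

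Besides Il12b, several lower genes were ones that LPS induced from a dim level. Cst7, the gene of the protease inhibitor cystatin F, read 46.9, 90.8 and 1699 in wild type against 36.9, 34.2 and 701 in knockout. Gfi1, a transcriptional repressor of blood cells, read 1.94, 43.7 and 802 in wild type against 12.4, 15.4 and 325 in knockout. At each LPS time the knockout signal of both genes was below the wild-type one, as the choice of members requires. Cst7 stood at −1.41 and −1.28 and Gfi1 at −1.26 and −1.30 at 1 h and 5 h, each with limma adjusted p = 0.0717. The 1 h value of Gfi1 is a bound because the knockout signal was under the floor, and both genes were called in a fit of genes that reach 500. With the floor at 50 the mean difference of Gfi1 was −0.65, against −1.28. The 250 bases before the Gfi1 start that hold an NF-κB consensus match, at the first of its 2 listed starts (chr5:107725806-107726055, minus strand), are shown with the match in capitals, 71 to 62 bases before the start.
Gfi1: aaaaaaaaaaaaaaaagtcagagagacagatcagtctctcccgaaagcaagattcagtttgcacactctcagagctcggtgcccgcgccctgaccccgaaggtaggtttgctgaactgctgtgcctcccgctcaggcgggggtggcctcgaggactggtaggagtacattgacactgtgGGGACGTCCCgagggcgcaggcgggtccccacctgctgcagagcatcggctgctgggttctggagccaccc

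The other LPS-induced genes at least 2-fold lower were Adm, Ccl24 and Mki67. Adm, which encodes the vasodilator peptide adrenomedullin, read 204 and 51.4 in wild type against 79.7 and 23.4 in knockout at 1 h and then 5 h (−1.36 and −1.13, limma adjusted p = 0.0717), and its mean difference was −0.70 with the floor at 50. Ccl24, the gene of the eosinophil-attracting chemokine eotaxin-2, read 228 and 436 in wild type against 113 and 88.5 in knockout (−1.02 and −2.30, limma adjusted p = 0.224). Ccl24 was the other way round at 0 h, 13.1 in wild type against 50.7 in knockout, both dim. Mki67, the gene of the proliferation antigen Ki-67, read 200, 1442 and 166 in wild type against 166, 647 and 68.3 in knockout (0 h, 1 h and 5 h). It was brightest at 1 h in both genotypes, and stood at −1.16 and −1.28 (limma adjusted p = 0.0717).

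At 1.5-fold the lower set also held Il1a, and Vcam1, Itgav, Klf2 and Gem, which were chosen after their values were seen. Il1a, the interleukin 1 alpha gene, read 8620 and 8452 in wild type against 5067 and 4043 in knockout at 1 h and then 5 h (−0.77 and −1.06), after signals under the floor at 0 h. Itgav, the integrin alpha V gene, read 975, 3570 and 3534 in wild type against 958, 1992 and 1803 in knockout. The Itgav signals were nearly equal at 0 h (−0.03) and apart at both LPS times (−0.84 and −0.97), and its second probe set gave −0.62 and −0.79. Another, dim probe set of Itgav gave 0.66 and −0.77, and the mean over the 3 was −0.56, against −0.91 on the brightest. Vcam1, a vascular adhesion molecule, was lower on all 3 of its probe sets, by 1.82-fold and 1.78-fold on the brightest. Klf2, a transcription factor that restrains inflammatory activation of macrophages, read 1669 and 399 in wild type against 968 and 191 in knockout (−0.79 and −1.06), and Gem, a small GTPase, 755 and 69.3 against 418 and 41.2. The limma adjusted p of these 5 genes was 0.214 to 0.224, and none was called.

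The remaining lower genes were of mixed function. Mad2l1, a spindle checkpoint gene, read 433 and 326 in wild type against 205 and 77.3 in knockout (−1.08 and −2.08), with 215 and 275 at 0 h. E2f8, a repressor of cell cycle genes, stood at −1.70 and −0.69, and Med21, a Mediator subunit gene, read 1133 and 985 in wild type against 354 and 522 in knockout. Adat2, a tRNA adenosine deaminase gene, read 373, 273 and 132 against 147, 118 and 65.4, lower at all 3 times. Gtpbp6, a GTP-binding protein gene, read 45.1 against 119 at 0 h, 79.4 against 29.2 at 1 h and 232 against 90.5 at 5 h. Both of its 0 h signals were dim, so a change of sides from 0 h to LPS could not be judged. Its mean LPS difference was −1.40 (limma adjusted p = 0.0691), and LPS minus 0 h was −2.80, the lowest adjusted p of that contrast at 0.15. Fabp3, a fatty acid-binding protein gene, was induced at 5 h to 976 in wild type against 408 in knockout, and Abhd17c, a depalmitoylase gene, read 2615 and 1524 against 1592 and 612.

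**Figure D2:**
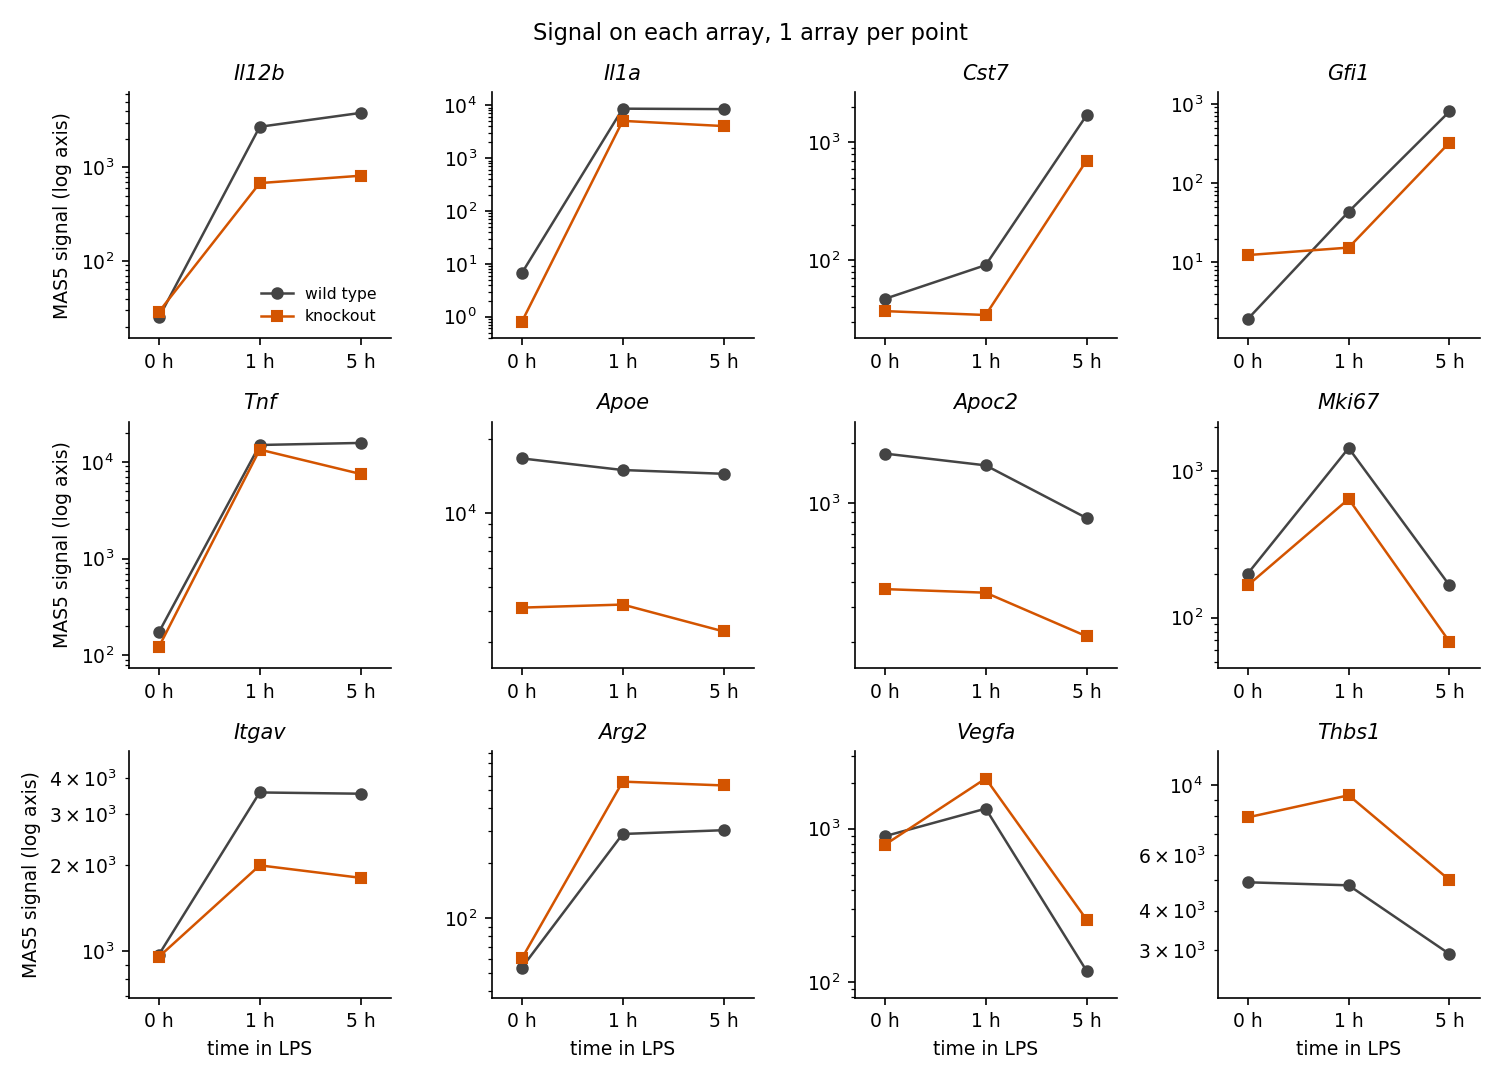
MAS5 signal (logarithmic vertical axes, a scale for each gene) at 0 h, 1 h and 5 h of LPS for 12 genes, with grey circles for wild type and orange squares for knockout, 1 array per point and no error bars. Il12b goes from about equal signals at 0 h to 3817 in wild type against 816 in knockout at 5 h, Apoe and Apoc2 are apart at all 3 times, and Arg2, Vegfa and Thbs1 are higher in knockout under LPS.

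None of the 5 genes at least 2-fold higher in knockout had a signal of 200 at both LPS times. All 5 reached 200 under LPS on knockout arrays only, so the minimum admitted them through the genotype where they were high. Gdf3, a growth factor of the TGF-beta family, read 111, 103 and 83.8 in wild type against 380, 337 and 195 in knockout (0 h, 1 h and 5 h), so it was higher before LPS too (1.77, 1.71 and 1.22, limma adjusted p = 0.0717). F5, the coagulation factor V gene, behaved alike with 131, 87.8 and 60.4 against 253, 219 and 122, and its second probe set gave 1.21 and 2.28 at 1 h and 5 h. Gbp8, an interferon-inducible guanylate-binding protein gene, read 49.8, 9.61 and 123 against 108, 40.7 and 348, the 1 h value being a bound. Cry2, a repressor of the circadian clock, read 126 and 110 at 0 h, both dim. It was higher in knockout at 1 h (101 and 228) and 5 h (60.2 and 173). Plagl1, an imprinted zinc finger gene, read 2.14 and 10.8 in wild type against 39.8 and 278 in knockout, and both wild-type signals were under the floor. Its other probe set read 5.26 or less on the 4 LPS arrays, so the 2 probe sets disagree. With the floor at 50 the mean LPS difference was 1.24 for Plagl1 and 0.75 for Gbp8, against 2.53 and 1.33.

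Brighter genes were higher by smaller amounts. Thbs1, the gene of the matrix protein thrombospondin 1, read 4923, 4815 and 2914 in wild type against 7915, 9301 and 5004 in knockout, higher at all 3 times on both of its probe sets. Arg2, the mitochondrial arginase gene, was dim and 0.17 apart at 0 h and then read 288 and 302 in wild type against 556 and 530 in knockout, and its second probe set gave 0.95 and 0.80. Vegfa, the angiogenic growth factor gene, read 1352 and 118 against 2127 and 255 (0.65 and 1.11), with 0.93 and 1.44 on its second probe set. The chemokine receptor gene Ccr1 read 2429 and 591 against 3778 and 1223, and the receptor gene Tlr3, a sensor of double-stranded RNA, 158 and 1433 against 254 and 2295. The second probe set of Tlr3 disagreed at 1 h (−0.31) and was higher at 5 h (1.67). Limma adjusted p values of these 5 genes ran from 0.215 to 0.306.

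The other higher genes named here followed varied time courses. Mxd1, a MAX-binding repressor gene, read 52 and 1254 in wild type against 197 and 2503 in knockout at 1 h and then 5 h (1.92 and 1.00). Upp1, the uridine phosphorylase gene, read 4594 and 7095 at 5 h after 49.5 and 79.4 at 1 h, wild type first. Tnip2, whose product ABIN-2 binds A20 and stabilises the kinase TPL-2, read 135 and 407 against 226 and 674. Its 0 h difference was −0.31, on dim signals. Gadd45g, a stress-response gene, read 173 and 347 against 302 and 793, and Npy, the neuropeptide Y gene, 525 and 643 against 836 and 1386. Lmna, the lamin A/C gene, was 1.55-fold and 1.71-fold higher (mean 0.45 over its 4 probe sets, against 0.70 on the brightest), and Serpinb8, a serine protease inhibitor gene, 2.05-fold and 1.85-fold higher. All of these stood the same way on both pairs of LPS arrays because members were chosen for that. None passed limma's test (adjusted p of 0.212 or more).

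Each member was set against its difference on the 0 h arrays. At 0 h 19 genes were at least 2-fold lower in knockout (0.335%) and 22 higher (0.388%). Of the 34 genes 1.5-fold lower under LPS, 3 were 2-fold lower at 0 h (Apoc2, Apoe and Adat2), 2 were 1.5-fold to 2-fold lower (Mrps12 and Mark4), and 15 were under 1.5-fold either way, Mki67, Mad2l1, Med21, Itgav and Klf2 among them. The other 14 had no 0 h signal of 200, Il12b, Il1a, Cst7, Gfi1 and Vcam1 among them, so a difference at 0 h could not be judged. Of the 32 higher genes, 1 was 2-fold higher at 0 h (Gdf3), 2 were 1.5-fold to 2-fold higher (F5 and Thbs1), 12 were under 1.5-fold, 1 was opposite (Fen1) and 16 were dim. Fen1, a DNA replication nuclease gene, read 1112 against 711 at 0 h and 233 against 415 and 296 against 532 under LPS, but its other probe set stood at −0.04 and −0.05 at 1 h and 5 h, and the mean of both sets was 0.40 under LPS.

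Among members with a 0 h signal of 200, 12 of 16 higher genes and 13 of 20 lower genes had the same sign at 0 h as under LPS. The share over all genes was not counted, so these counts do not set the members apart. The median 0 h difference was 0.36 for the higher genes, against 0.70 at 1 h and 0.81 at 5 h, and −0.26 for the lower genes, against −0.90 and −0.94. Members were chosen by their differences at 1 h and 5 h and not at 0 h. Larger medians under LPS were thus built in by the choice and do not show a wider gap under LPS. Limma's test of the LPS difference against the 0 h difference called 0 of 5677 genes (0%), with 162 at an unadjusted p under 0.05 and a lowest adjusted p of 0.15. With a prior variance that follows the signal it called 2, Il12b and Socs3. Neither gene had a 0 h signal of 200, so its difference at 0 h could not be judged. Across all genes the 0 h difference had a correlation of 0.28 with that at 1 h and of 0.10 with that at 5 h, a description across genes of the same 6 arrays.

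**Figure D3:**
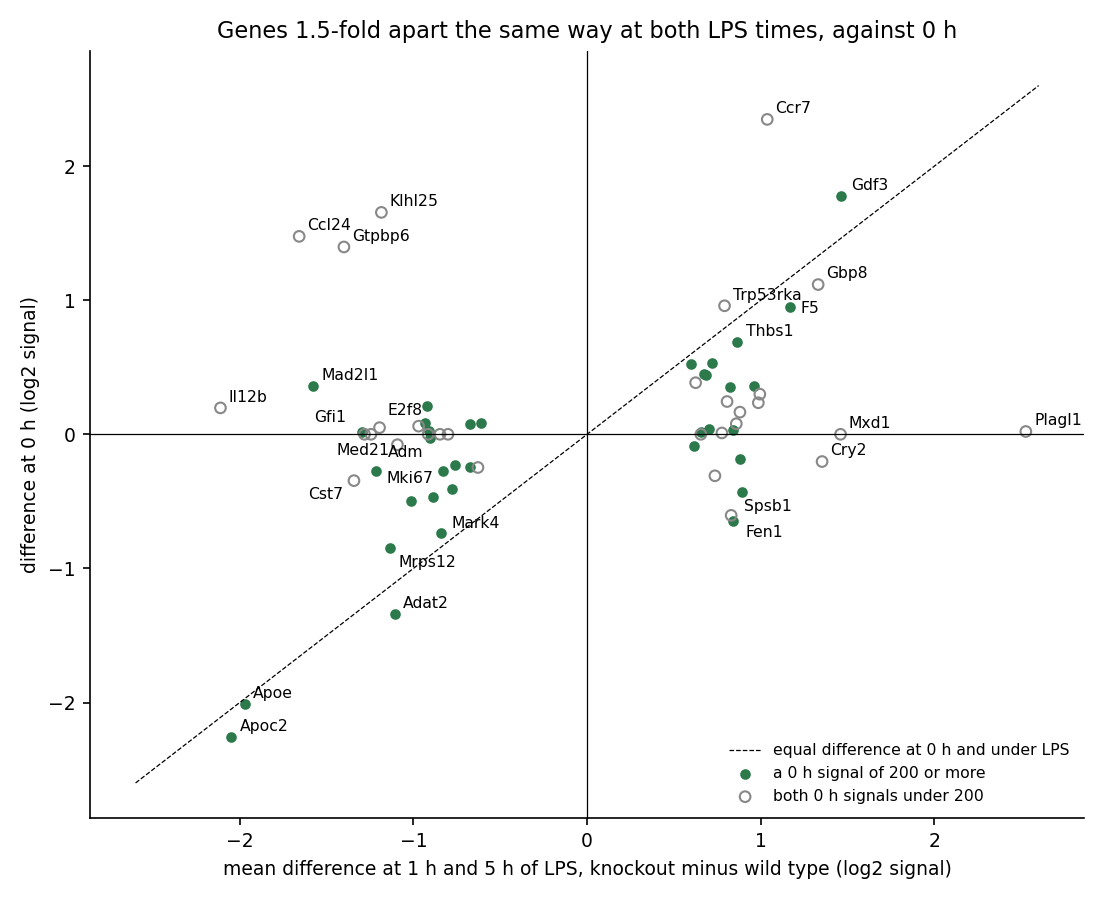
Mean knockout minus wild type over 1 h and 5 h of LPS (horizontal axis, log2 signal) against the difference at 0 h (vertical axis) for the 66 genes 1.5-fold apart the same way at both LPS times. Filled points have a 0 h signal of 200 or more; Apoe, Apoc2, Adat2 and Gdf3 lie near the dashed line of equal difference, and Il12b, Mki67 and Mad2l1 lie near 0 at 0 h or above it.

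Several known LPS targets are given next, whether or not they were 1.5-fold apart. Tnf read 14967 and 15715 in wild type against 13411 and 7507 in knockout, which is −0.16 at 1 h and −1.07 at 5 h (limma adjusted p = 0.53). Il6 read 5864 and 20267 against 4821 and 18040, Il1b 17642 and 18657 against 17480 and 14788, and Il10, an anti-inflammatory cytokine gene, 3126 and 6215 against 2534 and 7286. The pairs of Il6, Il1b and Il10 signals were within 1.5-fold of each other at both times. Il23a, whose product pairs with p40 in interleukin 23, read 291 and 74.8 at 1 h and was under the floor in both genotypes at 5 h. Of 18 measured cytokine genes of 23 in the list, 1 passed limma's test (Il12b), and 8 were lower and 1 higher at both LPS times, with a median mean difference of −0.18 against −0.03 for all genes. Over all 5677 genes, 1850 were lower and 1283 higher at both times, and after median centring 945 and 2406.

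The 17 chemokine genes had a median of −0.05 and 0 passed the test. Cxcl1 read 14221 and 4029 in wild type against 12964 and 2434 in knockout, Cxcl2 18931 and 19962 against 19205 and 14682, Ccl2 12976 and 12470 against 11765 and 11284, and Ccl5 9700 and 17571 against 8041 and 14697. Ccl22, a chemokine gene of activated macrophages and dendritic cells, was highest at 1.24 and 0.49. The 13 measured genes of NF-κB subunits, IκB inhibitors and IKK had a median of −0.06, lay between −0.30 (Relb) and 0.15 (Bcl3), and 0 passed the test. Rela read 4663 and 4762 against 5101 and 4545, Rel 1972 and 961 against 2027 and 1145, and Nfkbia 15503 and 19263 against 16622 and 14951. None of the 13 measured genes, of 18 in this list, thus differed by 1.5-fold at both LPS times. Nfkbib itself is not in the list. After median centring the medians of the chemokine and NF-κB lists were 0.06 each, so their direction depends on the scaling.

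Interferon-stimulated genes had a median of 0.12 over 38 genes, the highest of the lists with at least 9 measured genes, with 18 higher and 3 lower at both LPS times, and 0 passed the test. The counts were 24 and 3 after quantile normalization, when all genes gave 1440 higher and 1733 lower, and 28 and 2 after median centring, when all genes gave 2406 and 945. These counts were not tested, and the list median at 0 h was 0.32. Ifi204, a DNA-sensing p200 family gene, read 465 and 1599 in wild type against 593 and 5001 in knockout, whereas Ifit1 read 2816 and 18718 against 3397 and 16228. Cxcl10 read 10330 and 17043 against 9307 and 17946, and Ifnb1, the interferon beta gene, 1629 and 127 against 1955 and 81.4. Irf1, a transcription factor of interferon and NF-κB responses, was lowest, with 5219 and 6882 against 2529 and 5325 (−1.05 and −0.37). No gene of this list was thus 1.5-fold apart the same way at both times.

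Late LPS effectors (28 genes) had a median of −0.20, with 3 genes 1.5-fold higher at both times and 0 lower. The coagulation factor X gene F10 was lowest (−0.35 and −1.76) and Ccr7, a homing receptor gene with no signal over 236, highest. Ptgs2, the inducible cyclooxygenase gene, read 5367 and 16749 against 6629 and 15178, and Nos2, the inducible nitric oxide synthase gene, 4596 against 5881 at 5 h after signals under the floor at 1 h. Toll-like receptor signalling genes (18) had a median of 0.07, from Tlr6 (−0.48) to Tlr3 (0.68), immediate early genes (26) 0.04, negative feedback genes (18) 0.01 and glycolysis and hypoxia genes (18) 0.06. Within these, Socs1, an inhibitor of cytokine receptor signalling, stood at 1.16 and 0.44. Iron and antioxidant genes (19) had a median of −0.14, with Hamp, the hepcidin gene, at 0.53 and 1.75 on signals of 24 to 232.

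Lists of constitutive functions had medians a little under 0. They were −0.05 for macrophage identity (27 genes), −0.11 for ribosomal proteins (18), −0.07 for oxidative phosphorylation (30), −0.11 for lysosome and autophagy (20), −0.11 for cholesterol biosynthesis (9) and −0.09 for cell cycle genes (20). At both LPS times 14 of the 18 ribosomal protein genes were lower and 0 higher, with 18 and 1 of the oxidative phosphorylation genes, 11 and 1 of the lysosomal genes, 9 and 1 of the cell cycle genes, and 11 and 5 of the macrophage identity genes, against 1850 lower and 1283 higher of all 5677 genes. After median centring the counts over all genes were 945 lower and 2406 higher. The counts of these 5 lists were not repeated after rescaling, so their dependence on the scaling was not tested. No gene of these 5 lists passed limma's test, and Mki67 was the 1 gene of them past 1.5-fold at both times. The lipid handling list (19 genes, median −0.12) held the 2 called apolipoprotein genes. MHC class II and dendritic cell markers (10) had a median of 0.05. Macrophage identity (0.05), oxidative phosphorylation (0.03) and cell cycle genes (0.01) had medians above 0 after median centring, and quantile normalization put those of chemokines (0.06), macrophage identity (0.0047) and iron and antioxidant genes (0.0038) above 0.

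**Figure D4:**
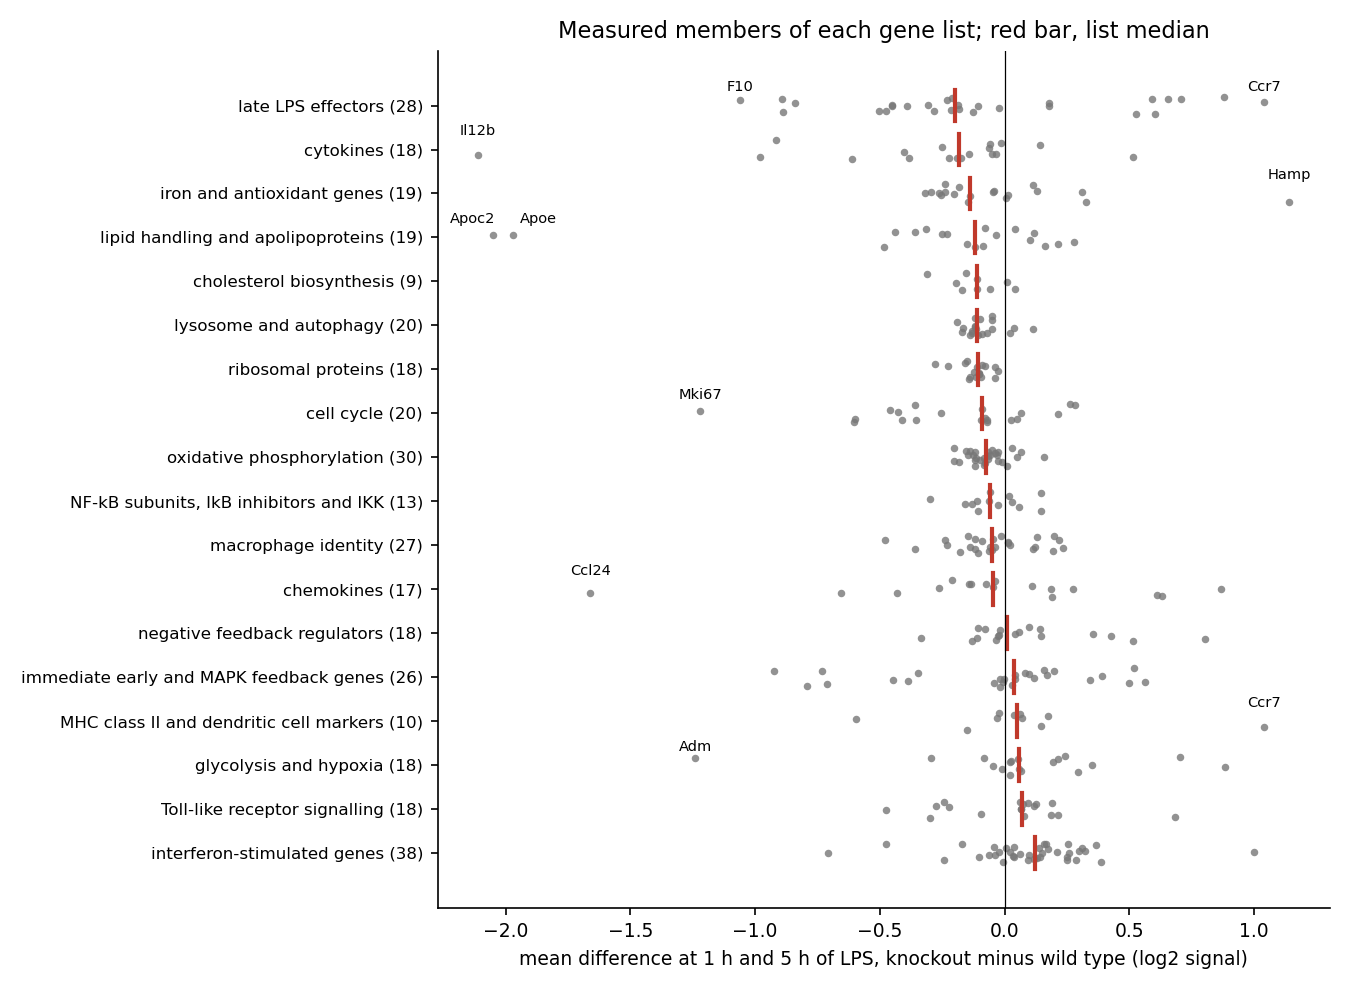
Mean knockout minus wild type over 1 h and 5 h of LPS (log2 signal, horizontal axis) for each measured gene of 18 lists, 1 grey point per gene, a red bar at the list median, and the number of genes in brackets. The medians run from −0.20 (late LPS effectors) to 0.12 (interferon-stimulated genes), and single genes such as Il12b, Apoe, Apoc2 and Ccl24 lie far below their lists.

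Of 435 genes that LPS raised at least 4-fold at 1 h or 5 h on the mean of the genotypes, 13 (2.99%) were 1.5-fold lower in knockout at both LPS times and 8 (1.84%) higher, against 0.599% and 0.564% of all genes. The 8 were Adamts4, Arg2, Ccr7, Glipr2, Mxd1, Spsb1, Tlr3 and Upp1. After median centring the counts were 11 lower and 24 higher, and after quantile normalization 10 and 12, so the balance depends on the scaling. Of 47 early genes, whose signal at 5 h had come down at least 2-fold from 1 h, 5 were lower (10.6%; Adm, Frmd6, Gem, Klhl25 and Mki67) and 0 higher, and their median difference was −0.01 at 1 h and −0.33 at 5 h. Of 110 genes raised 4-fold at both times, 5 were lower (4.55%), Il12b and Il1a among them, and 3 higher (2.73%). Of 215 late genes, 3 were lower (1.4%; Cst7, Fabp3 and Gfi1) and 4 higher (1.86%). Of 603 genes that LPS reduced, 3 were lower and 3 higher (0.498% each), near the shares of all genes.

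Chromosome 7, which carries Nfkbib, held more of the 66 members than any other autosome. At 1.5-fold either way its share of genes was 2.92%, against 2.41% on chromosome 6 and 2.08% on chromosome 1. At 2-fold it was not the highest, with 0.973% against 1.02% on chromosome 5. Of its 411 genes, 10 were 1.5-fold lower at both LPS times (2.43%) and 2 higher, against 24 lower (0.456%) and 30 higher of 5266 genes on the other 18 autosomes. On this chromosome both rescalings, by quantiles and by medians, gave 6 lower and 3 higher. Within 5 Mb of Nfkbib, 3 of 65 genes were members, and from 5 to 15 Mb, where Apoe, Apoc2 and Mark4 lie, 3 of 43. Farther away the counts were 2 of 68 from 15 to 30 Mb and 4 of 235 beyond 30 Mb, where Mki67, Adm, Klhl25 and Abhd17c lie. Closest to Nfkbib were Mrps12, a mitochondrial ribosomal protein gene (606 and 287 against 205 and 176), Med29, a Mediator subunit gene (106 and 121 against 217 and 194), and Hnrnpl, an RNA-binding protein gene (552 and 190 against 940 and 349). A second, dim probe set of Med29 gave 1.27 at 1 h and −0.41 at 5 h. The labels do not state the origin of the chromosome 7 segment in the knockout mice, and its part in these differences was not tested.

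**Figure D5:**
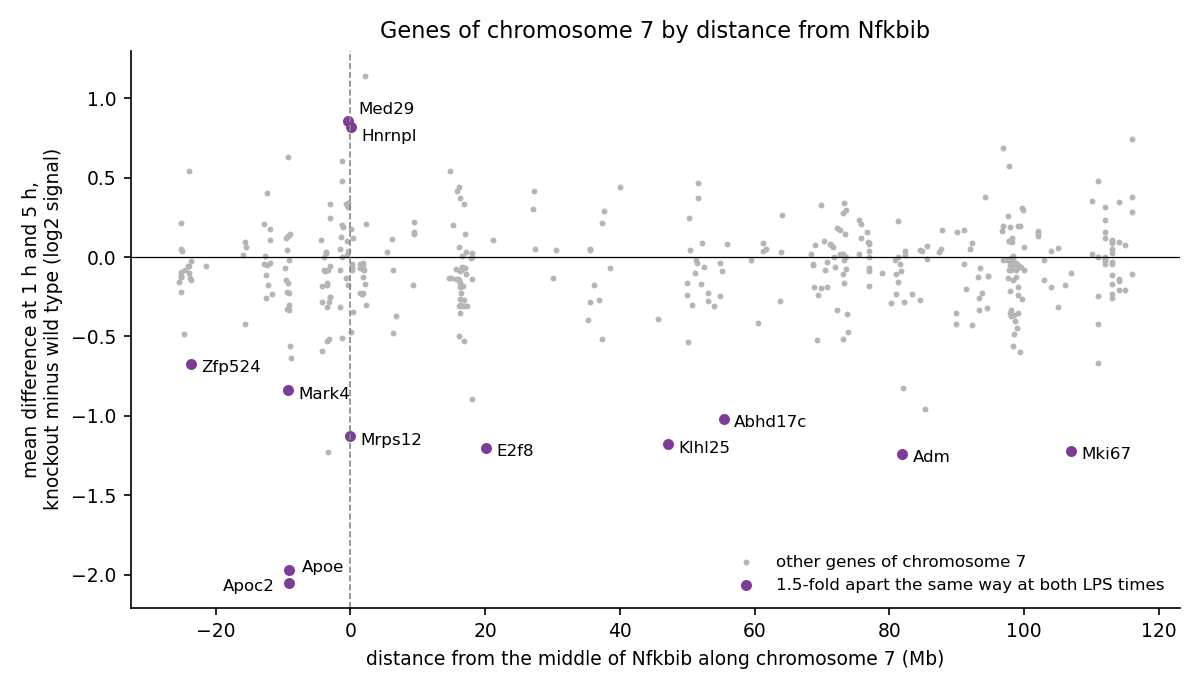
Mean knockout minus wild type over 1 h and 5 h of LPS (log2 signal, vertical axis) for genes of chromosome 7 by distance from the middle of Nfkbib in Mb (horizontal axis), with Nfkbib left out. Purple points are the 12 genes 1.5-fold apart the same way at both LPS times, of which Med29, Hnrnpl and Mrps12 lie within 5 Mb and Apoe, Apoc2 and Mark4 within 15 Mb.

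The 250 bases before a RefSeq start were at hand for 25 of the 34 lower genes, 24 of the 32 higher genes and 4704 of all 5678 genes, and both strands were searched. The NF-κB consensus was found for 2 of the lower genes (8.0%, Gfi1 and E2f8) and 6 of the higher genes (25%, among them Ccr1, Vegfa and Tlr3), against 8.8% of all. The AP-1 letters TGANTCA were found for 1 lower gene (Il1a) and 3 higher genes, against 4.53% of all, and the interferon response core, GAAA repeated after a gap of 2 bases, for 1 of each, against 3.02%. The half-site letters GGGGAAT, searched after the Il12b sequence had been read, were found for 1 lower gene (Il12b) and 0 higher genes, against 2.87% of all. The first listed start was used for a gene with several, and none of these counts was tested.

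Of the 66 members at 1.5-fold, 40 have a single probe set. Another 17 have 19 further probe sets that reached 200, of which 15 pointed the same way at both LPS times. The share over all genes was not counted. Dimmer probe sets were left out of this count, and some of them disagreed, those of Agk, Med29, Ctc1 and Pcm1 among them. With the brighter array of each LPS time at 200 or more, 18 lower and 17 higher genes were left at 1.5-fold, and 5 lower (Il12b, Apoc2, Apoe, Mad2l1 and Ccl24) and 0 higher at 2-fold. Just inside 2-fold were Adat2 (−1.01), F5 (1.01), Ccl24 (−1.02) and Mad2l1 (−1.08), and just outside it Mxd1 (1.00), Med21 (−0.92), Serpinb8 (0.89) and Rcsd1 (−0.87). Just inside the minimum signal were Zfp451 (200.05) and Fam117a (200.13), and just outside it Tle1 (199.88) and Trim24 (199.76).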

How the data were processed

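The values are microarray intensity: MAS5 signals that the authors deposited on a linear scale for 22690 probe sets, per the submitters' processing notes. Its version and scaling target were not given in the sources used here. Array medians were 65.21 to 117, and the mean of each array without its top and bottom 2% was 499.9. The number of arrays limits the precision. The members and lists were chosen with earlier results of these data known.

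Of the probe sets, 20393 carry 1 gene symbol, 691 several, and 1606 are not in the table used. Names and positions came from RefSeq (GRCm38.p6), with 20364 matched by Entrez ID, 1 by accession and 28 not in that table. The probe set of a gene with the highest mean on the LPS arrays stood for the gene. Signals under 18.2, the 25th percentile over all arrays, were set to 18.2 before the deposited values were put on the log2 scale, and a difference that involves such a signal is a bound. Of 11959 autosomal genes, 6281 were under the minimum signal of 200.

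Tests used limma 3.58.1 in R 4.3.3 with Benjamini-Hochberg adjustment: genotype with time as a block on the 4 LPS arrays, and the LPS difference against that at 0 h on all 6. They have 1 residual degree of freedom and a prior of 5.16. Differences at 1 time, lists, LPS classes, chromosomes and motifs are counts without a test.

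By rule, the text names Nfkbib, the largest differences among genes 2-fold apart at both times, the genes near 2-fold, a set of known LPS targets, the extremes of each list, and sex-linked genes as a check. Other members at 1.5-fold, Il23a, Rela and the genes of chromosome 7 were chosen after their values were seen, as was the half-site motif. Alternatives were quantile normalization, median centring, 2 other floors, 3 other minimums, the mean of probe sets, a prior that follows the signal, all 6 arrays and other fold thresholds. The scaling of the counts on chromosome 7 and at single times was added after seeing the data.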

Additional observations from a re-analysis of the deposited data

Results flagged for a closer look

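Ccl24 read opposite ways without and with LPS. Knockout minus wild type was 1.48 at 0 h, on dim signals of 13.1 and 50.7, and −1.02 and −2.30 at 1 h and 5 h. Its 0 h value is a bound because the wild-type signal was under the floor. The limma adjusted p of LPS against 0 h was 0.468 for Ccl24. Gtpbp6 stood at 1.40 at 0 h, on dim signals of 45.1 and 119, and at −1.44 and −1.36 under LPS (limma adjusted p = 0.15). A difference at 0 h, and so a change of direction, could not be judged for either gene. Rps27, a ribosomal protein gene, stood at 1.45 at 1 h, 106 in wild type and 290 in knockout, and at −1.32 at 5 h, 160 and 63.9. Slc30a3, a zinc transporter gene, stood at 2.67 at 1 h, 34.9 and 222, and at −2.21 at 5 h, 109 and 23.4. For the last 2 genes the difference between the LPS times rests on single arrays and was not tested.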

How the results depend on the processing

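Genes called higher (0) and lower (3) by limma became 4 and 8 with the mean of probe sets and 40 and 41 with a prior that follows the signal. The count lower was 1 after quantile normalization, 0 after median centring, 0 with a minimum of 100, 0 without a minimum, and 6 with a minimum of 500. The number of genes tested was 6864, 11959 and 3868 for the last 3. Genes 2-fold higher and lower at both LPS times (5 and 11) became 3 and 7 with the floor at 50, 11 and 23 with a minimum of 100, 24 and 78 without one, 0 and 6 with a minimum of 500, 32 and 34 at 1.5-fold, 0 and 3 at 3-fold, and 0 and 5 with 200 on the brighter array of each LPS time. Genes called for LPS against 0 h became 2 with a prior that follows the signal. LPS-induced genes 1.5-fold higher (8) became 24 after median centring and 20 when induction was set at 2-fold. Where neither the number of genes tested nor the threshold explains a change, the cause was not tested.

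Of the 66 members, 64 were still measured after quantile normalization and after median centring, and 58 with the mean of probe sets. The prior that follows the signal leaves the differences unchanged. None of the members still measured turned its sign. Kept signs were largely built in, because members were chosen for a 1.5-fold difference the same way at both LPS times. In the fit of all 6 arrays 21 moved by over 1.5 times (Gtpbp6 to −0.47, Ccl24 to −0.61), and 8 did with the floor at 50. Of the named genes outside the members, 4 turned sign in the fit of all 6 arrays (Il1b to 0.14, Cxcl10 to 0.18, Rel to −0.0097 and Ccnd1), 3 after median centring, 1 after quantile normalization and 1 with the mean of probe sets. Quantile normalization lost the calls of Apoe and Apoc2, and the fit of all 6 arrays that of Il12b. No paired analysis was possible because the labels give no replicate numbers and each genotype and time has 1 array; time is already the block. Leaving out an array leaves no residual degree of freedom, so the values of each LPS time stand in its place. Array signals under the floor, 22.8% to 28.3% of each array, have no order.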

Other observations

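Saa3, an acute-phase gene of macrophages on chromosome 7, closed its gap with time: wild type read 2145, 6933 and 17481 at 0 h, 1 h and 5 h, and knockout 343, 2237 and 15703. Its differences were −2.65, −1.63 and −0.15 on the log2 scale, so that LPS minus 0 h was 1.75 (limma adjusted p = 1). Socs3, an inhibitor of cytokine receptor signalling, had 22.2 against 85.3 at 0 h, wild type first, and then 12191 against 12897 at 1 h and 13205 against 12116 at 5 h. Both genes were nearly equal between the genotypes at 5 h, and both were chosen after their values were seen.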
